A study of Homo sapiens with 20 samples.

Results

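The tight junction genes described here are 9 named genes: the occludin gene OCLN, the claudin genes CLDN3, CLDN4, CLDN7, CLDN8 and CLDN12, the zonula occludens scaffold genes TJP1 and TJP3, and the adhesion receptor gene F11R. Members were chosen by symbol, as probe sets annotated to exactly 1 of these genes, and 8 of the 9 genes had such probe sets, 15 in all. The genes were named with earlier results of these data known. F11R had none in the annotation used and was not analysed here. The 8 genes stand among 19775 genes read by 41097 such probe sets. For each gene the probe set with the highest mean over the 20 arrays gave the values, and the other probe sets of OCLN (4 in all), CLDN3, CLDN4, TJP1 and TJP3 (2 each) served as a check.

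Expression was measured on Affymetrix arrays in 2 human prostate cancer lines, LNCaP, which grows in response to androgen, and its derivative C42B, which grows without it. C42B cells received siRNA against LSD1 (siLSD1) or the control siRNA siNTC for 6 h and were then kept for 96 h in medium with 10% CSS, serum stripped of steroids (3 arrays per group). LNCaP cells received siLSD1 or siNTC at 50 nM and grew for 96 h in medium with 10% FBS (3 arrays per group, each from 2 pooled wells). A further set of C42B cells was held in 10% CSS for 72 h before a 16 h exposure to the androgen dihydrotestosterone (DHT, 100 nM) or to ethanol as vehicle (4 arrays per group). The labels name no more than a single siRNA against LSD1, so its off-target effects and those of lost LSD1 cannot be told apart, and medium and line cannot be told apart between the siRNA experiments. The labels give separate wells or pooled wells as replicates without saying that the cultures were independent, so each p-value reflects only how far these samples spread, which may be technical.

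Tight junctions seal the space between neighbouring epithelial cells and separate the apical from the basolateral membrane. Claudins form the paracellular strands, some of them barriers and some of them ion pores. Occludin, a 4-pass membrane protein of the MARVEL family, joins these strands, and the scaffold proteins ZO-1 and ZO-3, encoded by TJP1 and TJP3, bind claudin and occludin tails and link them to actin. In prostate epithelium tight junctions belong to the luminal layer, the layer whose markers LNCaP and C42B express. The transcription factors SNAI1, SNAI2 and ZEB1 are known to repress OCLN and claudin genes through E-boxes, and GRHL2 is known to support expression of claudin genes.

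Promoter sequence was taken from the RefSeq promoter table (GRCh38.p14), which held 13 windows for 7 of the members, OCLN, CLDN3, CLDN4, CLDN7, CLDN12, TJP1 and TJP3. The 250 bases before each annotated start were searched on both strands for the E-box CAGGTG, for AGAACA, the hexamer of androgen response elements, and for ACCGGT, the core of GRHL sites. Below are the windows before the first listed start of OCLN (chr5:69492297-69492546, plus strand) and CLDN12 (chr7:90403211-90403460, plus strand), the members that rose with siLSD1 in both lines, and of TJP1 (chr15:29969050-29969299, minus strand), whose probe sets were lower or did not pass. They are written 5′ to 3′ on the strand of the gene, with the letters CAGGTG in capitals.
OCLN: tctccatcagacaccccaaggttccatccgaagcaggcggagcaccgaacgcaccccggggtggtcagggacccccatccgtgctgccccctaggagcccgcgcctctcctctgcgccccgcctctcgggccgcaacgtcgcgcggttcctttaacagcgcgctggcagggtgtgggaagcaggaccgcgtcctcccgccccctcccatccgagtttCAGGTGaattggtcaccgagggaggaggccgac
CLDN12: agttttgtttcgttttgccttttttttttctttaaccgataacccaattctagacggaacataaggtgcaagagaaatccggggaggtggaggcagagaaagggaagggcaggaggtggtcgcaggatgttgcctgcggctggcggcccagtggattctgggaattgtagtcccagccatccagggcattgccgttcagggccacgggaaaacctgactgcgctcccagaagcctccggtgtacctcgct
TJP1: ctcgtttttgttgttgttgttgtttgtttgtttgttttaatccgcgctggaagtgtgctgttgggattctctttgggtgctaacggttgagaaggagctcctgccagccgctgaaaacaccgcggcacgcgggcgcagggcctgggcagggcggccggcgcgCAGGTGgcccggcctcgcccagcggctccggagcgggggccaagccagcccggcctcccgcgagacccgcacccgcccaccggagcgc
OCLN and TJP1 each had a CAGGTG in the printed window, and CLDN12 had no match to any of the motifs. CAGGTG was found in 5 of the 13 member windows (those of OCLN, CLDN7, TJP1 and TJP3), against 17.5% of all 35116 windows in the table. Those 5 windows had 66.8 to 71.2% G and C, against a median of 58% over all windows. OCLN, CLDN7, TJP1 and TJP3 also had several windows each. Whether the count exceeds that of windows of like base content was not tested. AGAACA was found in 1 member window, of a later start of TJP1, against 12.4% of all windows, and ACCGGT in none, against 1.45% of all. No match overlapped one of another motif. These are counts of letters in a short window and do not show that a factor binds there.

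The deposited values are intensities, and all levels below are their log2. The median intensity of an array was 84.1 to 86.1 with DHT or vehicle, 78.4 to 81.2 for C42B with siRNA and 63.3 to 65.1 for LNCaP, so levels were compared only within an experiment, with a precision set by the few arrays in each group. A gene passed a comparison at an adjusted p under 0.05 over 19775 genes in limma's fit, and ± after a log2 fold change is the SE of that fit. The transcript of LSD1 itself, KDM1A, was lower with siLSD1 by −2.40 in C42B and −2.78 in LNCaP, with no overlap of the groups in either line. DHT raised the androgen-induced genes KLK3 by 2.74 and FKBP5 by 3.12. Of 8 measured luminal markers all were at or above 6, the level called dim below, except KRT19 in vehicle. Of other cell types, 2 or 3 of 5 basal, 4 of 7 stromal, 3 of 6 endothelial and 0 or 1 of 4 leukocyte markers were bright in a group, among them VIM (8.27 to 10.89 as group means), COL1A1 (7.81 to 8.94), ITGA6 (8.06 to 9.07) and VWF (6.42 to 7.73). The basal keratins KRT14 and KRT15, the stromal genes COL1A2 and LUM, the endothelial genes CDH5 and KDR and the leukocyte genes PTPRC and CD14 were dim in all 6 groups.

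**Figure D1:**
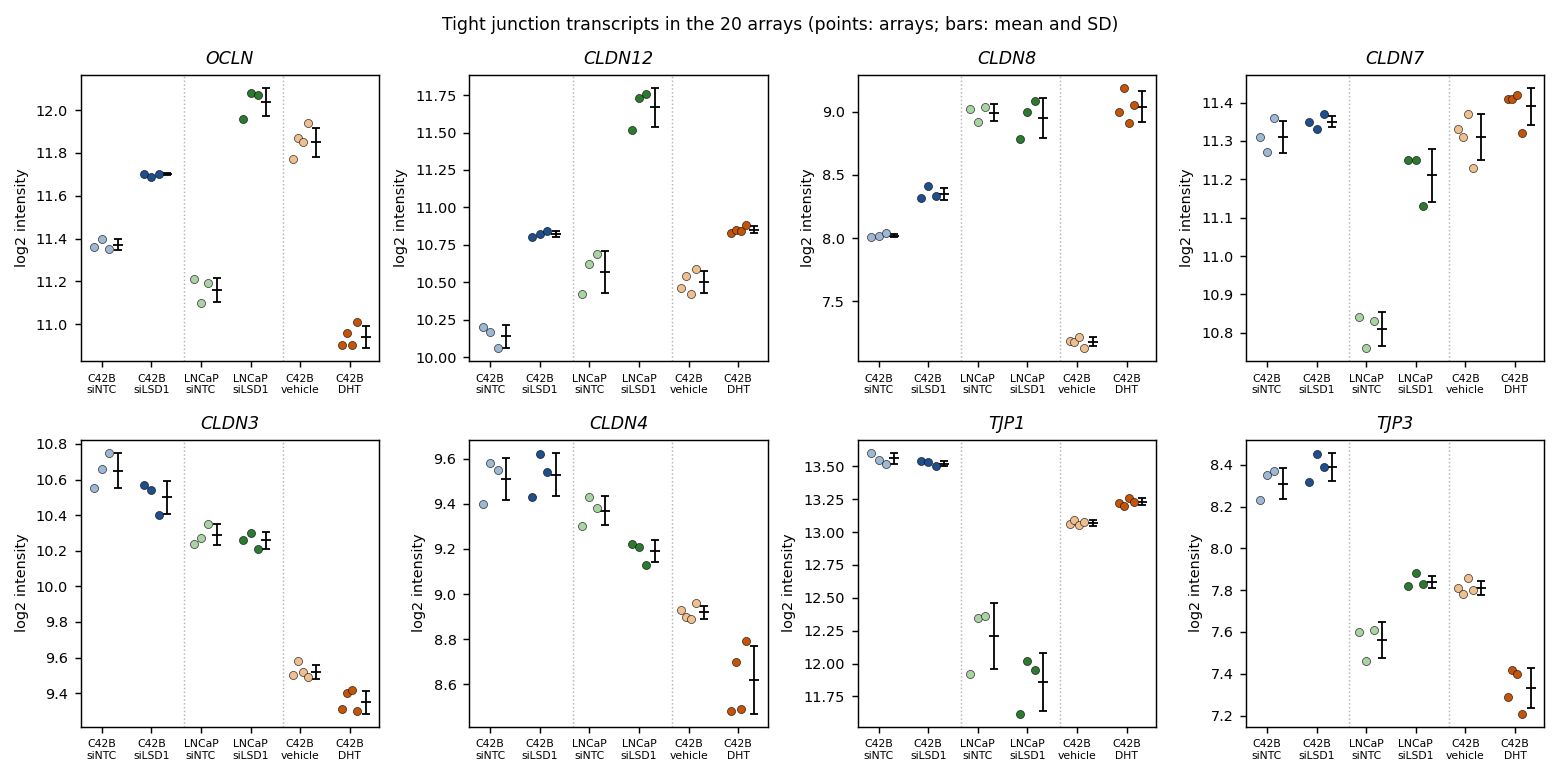
Log2 intensity of the 8 tight junction genes in each of the 20 arrays, by group, with the group mean and SD beside the points; dotted lines part the 3 experiments, whose levels are not on a shared scale, and each panel has its own axis, which does not start at 0. OCLN and CLDN12 lie higher with siLSD1 than with siNTC in both lines, and with DHT OCLN lies lower and CLDN8 higher than with vehicle.

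OCLN, the gene of occludin, rose with siLSD1 in both lines and fell with DHT. In C42B its levels were 11.70, 11.69 and 11.70 with siLSD1 and 11.36, 11.40 and 11.35 with siNTC. In LNCaP they were 11.96, 12.08 and 12.07 with siLSD1 and 11.21, 11.10 and 11.19 with siNTC. Every siLSD1 array lay above every siNTC array of its line. The rise was 1.26-fold in C42B (log2 fold change 0.33 ± 0.046, n = 3 per group, limma adjusted p = 0.0034) and 1.83-fold in LNCaP (0.87 ± 0.063, n = 3 per group, limma adjusted p = 3.9e-05). With DHT the levels in C42B were 10.90, 10.96, 10.90 and 11.01, against 11.77, 11.87, 11.85 and 11.94 with vehicle. The groups did not overlap, and the transcript was lower by 46.9% (log2 fold change −0.91 ± 0.048, n = 4 per group, limma adjusted p = 6.6e-07, exact permutation p = 0.029). That permutation p is the smallest 4 arrays against 4 can give, and 3 against 3 cannot go below 0.1, the value for OCLN in each line.

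The 3 other OCLN probe sets gave the same direction in every comparison and passed each. With siLSD1 they rose by 0.41, 0.46 and 0.81 in C42B and by 1.34, 1.07 and 1.76 in LNCaP, and with DHT they changed by −0.97, −0.91 and −1.05, each in the order 231022_at, 209925_at and 235937_at. The brightest probe set, 227492_at, therefore gave the smallest siLSD1 rises of the 4. The dimmest, 235937_at, rose from 7.82, 7.70 and 7.73 to 8.49, 8.58 and 8.59 in C42B and from 7.89, 7.87 and 7.87 to 9.54, 9.66 and 9.71 in LNCaP. The size of the OCLN rise thus differed between probe sets, while its direction did not. The RefSeq table also lists a transcribed pseudogene, OCLNP1, on chromosome 5, and which probe sets could read it was not tested.

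CLDN12, a claudin without the PDZ-binding tail found in most others, rose in all 3 comparisons. In C42B it stood at 10.80, 10.82 and 10.84 with siLSD1 and at 10.20, 10.17 and 10.06 with siNTC, a 1.60-fold rise (0.68 ± 0.056, n = 3 per group, limma adjusted p = 5.1e-04). In LNCaP it stood at 11.52, 11.73 and 11.76 against 10.42, 10.62 and 10.69, a 2.13-fold rise (1.09 ± 0.093, n = 3 per group, limma adjusted p = 8.9e-05). In both lines the siLSD1 and siNTC arrays were fully apart, although replicate 1 was the lowest LNCaP array of each group. With DHT CLDN12 stood at 10.83, 10.85, 10.84 and 10.88 and with vehicle at 10.46, 10.54, 10.42 and 10.59, a 1.27-fold rise (0.35 ± 0.046, n = 4 per group, limma adjusted p = 2.9e-04) without overlap. CLDN12 was read by a single 1-gene probe set, 223249_at.

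OCLN and CLDN12 thus shared the direction of the siLSD1 change and not that of the DHT change. Of all genes tested, 1047 (5.29%) passed higher with siLSD1 in both lines. Among all genes tested, 393 (1.99%) passed higher in both lines and lower with DHT, as OCLN did, and 319 (1.61%) passed higher in both lines and with DHT, as CLDN12 did. The DHT comparison shares no arrays with the siRNA comparisons.

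CLDN8, a barrier claudin of tight epithelia such as the distal nephron, had the largest change of the 8 genes, its rise with DHT. Its levels were 9.0, 9.19, 8.91 and 9.05 with DHT and 7.19, 7.18, 7.22 and 7.13 with vehicle. The lowest DHT array lay far above the highest vehicle array, and the rise was 3.62-fold (log2 fold change 1.86 ± 0.061, n = 4 per group, limma adjusted p = 2.9e-08, exact permutation p = 0.029). With siLSD1 in C42B, in steroid-depleted medium, CLDN8 rose from 8.01, 8.02 and 8.04 to 8.32, 8.41 and 8.33, 1.26-fold (0.33 ± 0.049, n = 3 per group, limma adjusted p = 0.0044). In LNCaP, in full serum, the levels were 8.78, 9.0 and 9.08 with siLSD1 and 9.02, 8.92 and 9.04 with siNTC. There the groups overlapped and the change did not pass (−0.039 ± 0.086, limma adjusted p = 0.80). CLDN8 was also read by a single probe set.

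CLDN7, which is widespread in simple epithelia, rose with siLSD1 in LNCaP, from 10.84, 10.76 and 10.83 to 11.25, 11.25 and 11.13, without overlap of the groups (0.40 ± 0.062, n = 3 per group, limma adjusted p = 0.0019). It did not pass in C42B with siLSD1 (0.038 ± 0.048, limma adjusted p = 0.66) or with DHT (0.081 ± 0.046, limma adjusted p = 0.22), where the groups overlapped.

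CLDN3 and CLDN4, neighbours on chromosome 7 and both receptors of a Clostridium perfringens enterotoxin, did not pass with siLSD1 in either line and fell slightly with DHT. CLDN4 stood at 8.48, 8.70, 8.49 and 8.79 with DHT and at 8.93, 8.90, 8.89 and 8.96 with vehicle (−0.30 ± 0.071, n = 4 per group, limma adjusted p = 0.0093). CLDN3 stood at 9.31, 9.40, 9.42 and 9.30 with DHT and at 9.50, 9.58, 9.52 and 9.49 with vehicle (−0.17 ± 0.045, n = 4 per group, limma adjusted p = 0.018). Neither pair of groups overlapped. The second probe set of each gene did not pass with DHT: that of CLDN3 gave −0.12 (limma adjusted p = 0.21) and that of CLDN4, with group means of 6.35 and 6.34 close to the dim level, gave 0.012 (limma adjusted p = 0.93). The CLDN3 call also ended without DHT replicate 1 (limma adjusted p = 0.052) or without vehicle replicate 2 (limma adjusted p = 0.053). With siLSD1 the CLDN3 change was −0.15 ± 0.073 in C42B (limma adjusted p = 0.21) and −0.029 ± 0.060 in LNCaP (limma adjusted p = 0.78), and its second probe set passed lower in C42B (−0.20, limma adjusted p = 0.038). CLDN4 changed by 0.022 ± 0.072 in C42B (limma adjusted p = 0.88) and by −0.18 ± 0.061 in LNCaP (limma adjusted p = 0.063), where it passed without siNTC replicate 1 (limma adjusted p = 0.037).

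TJP3, the gene of ZO-3, a scaffold largely restricted to epithelia, followed the directions of OCLN in LNCaP and with DHT. In LNCaP it stood at 7.82, 7.88 and 7.83 with siLSD1 and at 7.60, 7.46 and 7.61 with siNTC (0.29 ± 0.063, n = 3 per group, limma adjusted p = 0.011). With DHT it stood at 7.29, 7.42, 7.40 and 7.21 and with vehicle at 7.81, 7.78, 7.86 and 7.80, a fall of 28.2% (−0.48 ± 0.053, n = 4 per group, limma adjusted p = 9.5e-05). Neither pair of groups overlapped, and the second probe set passed both comparisons too (0.33 in LNCaP and −0.37 with DHT). In C42B with siLSD1 the change was 0.075 ± 0.062 by the brighter and −0.038 ± 0.055 by the second probe set, and neither passed (limma adjusted p = 0.46 and 0.70).

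TJP1, the gene of ZO-1, the core scaffold of the junction, gave values that depended on the probe set. By the brighter probe set, 202011_at, it stood at 13.54, 13.53 and 13.50 with siLSD1 and 13.60, 13.55 and 13.52 with siNTC in C42B, which overlapped (−0.031 ± 0.048, limma adjusted p = 0.72). In LNCaP it stood at 11.62, 12.02 and 11.95 with siLSD1 and 11.92, 12.35 and 12.36 with siNTC, which overlapped as well, with replicate 1 the lowest array of each group (−0.35 ± 0.14, limma adjusted p = 0.12). Without LNCaP siNTC replicate 1 the change was −0.49 and passed (limma adjusted p = 0.021). By the other probe set, 214168_s_at, TJP1 was lower with siLSD1 in both lines without overlap. It stood at 10.73, 10.46 and 10.53 against 11.06, 11.07 and 11.07 in C42B (−0.49 ± 0.074, limma adjusted p = 0.0046). In LNCaP it stood at 8.64, 8.59 and 8.66 against 9.32, 9.29 and 9.48 (−0.73 ± 0.068, limma adjusted p = 1.3e-04). With DHT both probe sets rose without overlap, by 0.16 ± 0.036 (limma adjusted p = 0.0084) and 0.40 ± 0.039 (limma adjusted p = 4.0e-05). Which transcript forms each probe set reads was not tested, and the RefSeq table lists a TJP1 pseudogene, TJP1P1.

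**Figure D2:**
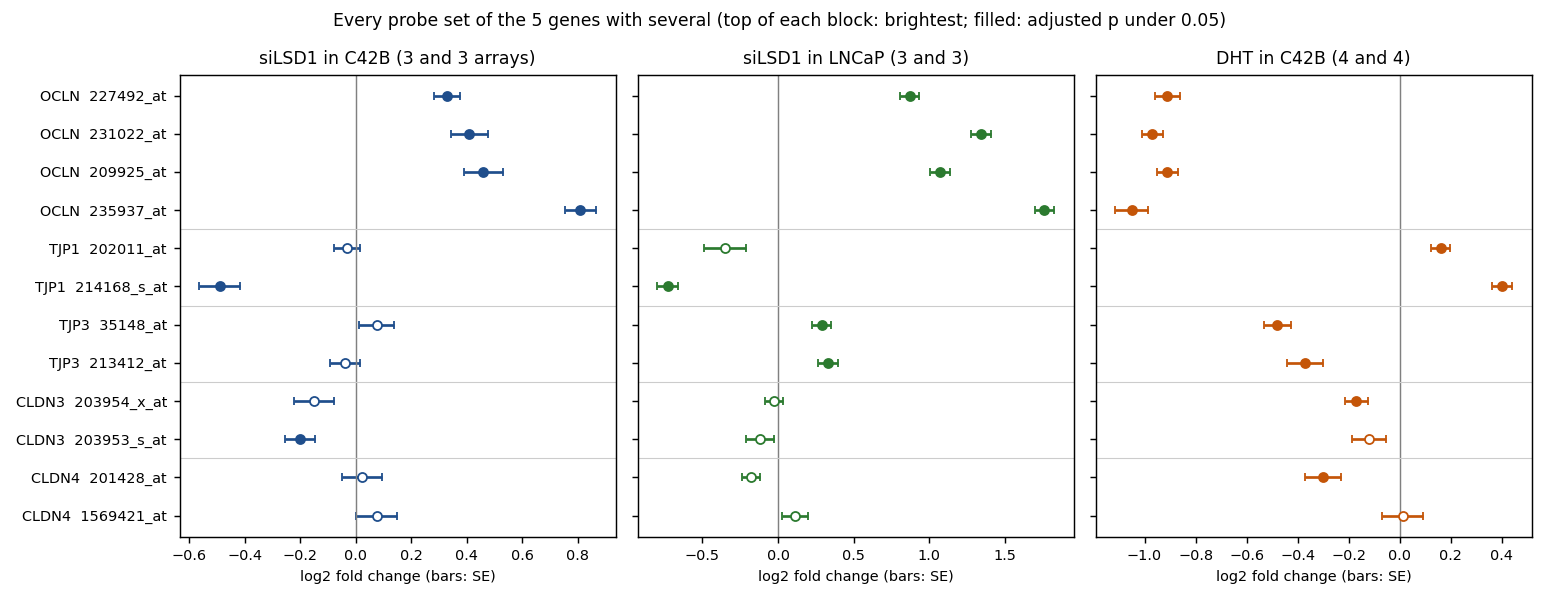
Log2 fold change of every probe set of the 5 genes that had several, in the 3 comparisons, with the SE of the fit as bars and filled points for an adjusted p under 0.05; the 3 axes differ in range. The 4 OCLN probe sets lie on the same side of 0 in each panel, while 214168_s_at of TJP1 lies at −0.49 and −0.73 with siLSD1 against −0.031 and −0.35 for 202011_at.

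By the brightest probe sets, then, 3 of the 8 genes rose with siLSD1 in C42B (OCLN, CLDN8 and CLDN12) and none passed lower, with a median log2 fold change of 0.056 against −0.017 over all genes, of which 18.0% passed, 8.66% higher and 9.39% lower. The siLSD1 and siNTC arrays did not overlap for those 3 genes, as for 36.3% of all genes. In LNCaP 4 of 8 rose (OCLN, CLDN7, CLDN12 and TJP3) and none passed lower, with a median of 0.13 against 0.011 over all genes, of which 25.9% passed, 13.4% higher and 12.5% lower. Those 4 and CLDN4, 5 genes in all, had arrays that did not overlap, as had 40.1% of all genes. By their brightest probe sets all 8 genes were bright in every group, while the shares of all genes include dim ones. Among genes bright in at least 1 group, fitted alone, 31.3% of 13905 passed with siLSD1 in C42B and 43.2% of 12782 in LNCaP. Of the members 3 of 8 then passed in C42B and 5 of 8 in LNCaP, where CLDN4 passed lower. With DHT 3 rose (CLDN8, CLDN12 and TJP1) and 4 fell (OCLN, CLDN3, CLDN4 and TJP3), with a median of −0.043 against 0.013 over all genes, of which 32.7% passed, 13.4% higher and 19.4% lower. The arrays of these 7 did not overlap, as for 34.6% of all genes, and CLDN7 was the only member read that did not pass with DHT. The genes moved in both directions with DHT, and no common direction describes them there. Because the genes were chosen with earlier results of these data known, their counts beside the shares of all genes are descriptions only.

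**Figure D3:**
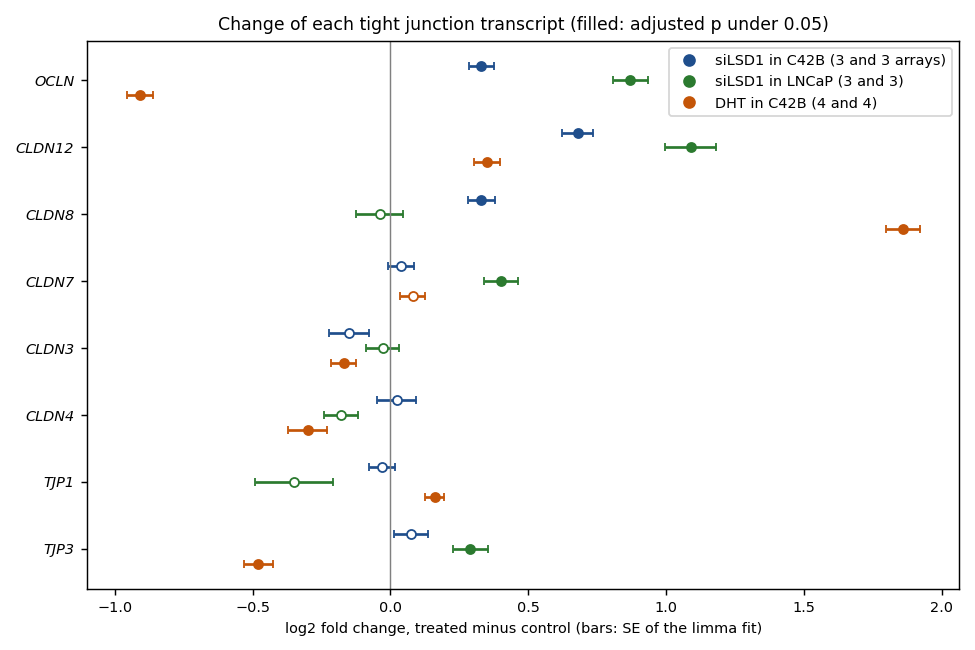
Log2 fold change of each of the 8 genes by its brightest probe set in the 3 comparisons (siLSD1 in C42B, DHT in C42B, siLSD1 in LNCaP), with the SE of the fit as bars and filled points for an adjusted p under 0.05. OCLN lies at 0.33 and 0.87 with siLSD1 and at −0.91 with DHT, CLDN12 lies to the right of 0 in all 3 comparisons, and CLDN8 lies at 1.86 with DHT.

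The siLSD1 effects of the lines were compared as a contrast over the 12 siRNA arrays, in which 11.6% of all genes passed, 6.07% with a higher and 5.56% with a lower effect in LNCaP. Of the members, 3 passed higher and 1 lower. The log2 rise of OCLN was larger in LNCaP by 0.54 ± 0.073 (limma adjusted p = 5.5e-04), and each of its other probe sets passed this difference as well (0.94, 0.61 and 0.95). CLDN7 also rose more in LNCaP (0.36 ± 0.074, limma adjusted p = 0.0077). CLDN12 rose more in LNCaP by 0.42 ± 0.11 (limma adjusted p = 0.033), and the CLDN8 effect was lower in LNCaP by −0.37 ± 0.10 (limma adjusted p = 0.036). Both of these lay near the threshold. The CLDN8 call ended when any of 9 of the 12 arrays was left out (limma adjusted p = 0.053 to 0.091), and the CLDN12 call when any of 8 was left out (limma adjusted p = 0.052 to 0.083). With median centring the CLDN12 difference was 0.39 and did not pass (limma adjusted p = 0.061). The differences of CLDN3, CLDN4, TJP1 and TJP3 did not pass (limma adjusted p = 0.47, 0.20, 0.26 and 0.15), and that of TJP3 passed by its second probe set (0.37, limma adjusted p = 0.013).

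Other genes of the junction were read from lists written for this comparison, with earlier results of these data known. Their counts stand beside the share of all genes that passed, 18.0% with siLSD1 in C42B, 25.9% with siLSD1 in LNCaP and 32.7% with DHT. Those shares include dim genes, and among bright genes alone a larger share passed with siLSD1. Of 15 other measured claudins none passed with siLSD1 in either line. However, CLDN1, CLDN2, CLDN10, CLDN14 and CLDN20 were dim in every siRNA group, where a change is hard to read. CLDN5, CLDN17 and CLDN18 were dim in the siRNA groups of a single line. With DHT 3 of the 15 rose and 2 fell, 5 of 15 against 32.7% of all genes. Among them were CLDN23 (−0.15 ± 0.048) and CLDN14, which rose by at least 0.29 from a dim level (limma adjusted p = 0.035 for both). CLDN10, another of the 3 that rose, was dim with DHT and with vehicle (means of 5.76 and 5.53). Of 9 other membrane proteins of the junction 2 rose and 1 fell in C42B with siLSD1, 3 rose and 1 fell in LNCaP, and 3 rose and 3 fell with DHT, against 18.0%, 25.9% and 32.7% of all genes. MARVELD2 encodes tricellulin, the relative of occludin at contacts of 3 cells, and had the same directions as OCLN: 0.18 ± 0.046 in C42B and 0.38 ± 0.057 in LNCaP with siLSD1, and −0.21 ± 0.040 with DHT, each of which passed (limma adjusted p = 0.032, 0.0016 and 0.0030). LSR, the angulin that recruits tricellulin, fell with siLSD1 in C42B (−0.26 ± 0.048) and in LNCaP (−0.43 ± 0.060), with limma adjusted p = 0.010 and 0.0012. The junctional adhesion molecule gene JAM3 fell with DHT (−0.69 ± 0.085), as did ILDR1 (−0.37 ± 0.061), while the polarity gene CRB3 rose (0.29 ± 0.045). JAM2 was among the 3 rises in LNCaP, but both of its groups were dim there (means of 4.73 and 4.51).

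Scaffold and polarity genes mostly fell with DHT: 12 of 19 measured were lower and 1, PARD3, higher, with a median of −0.22 against 0.013 over all genes, of which 19.4% passed lower and 13.4% higher. With siLSD1 4 rose and 1 fell in C42B, and 5 rose and none passed lower in LNCaP, so that 5 of 19 passed in each line against 18.0% and 25.9% of all genes. CGNL1, paracingulin, rose with siLSD1 in C42B (0.56 ± 0.057) and LNCaP (0.73 ± 0.067) and fell with DHT (−0.88 ± 0.049). Its relative CGN, cingulin, rose by 0.34 ± 0.060 and 0.30 ± 0.054 and fell with DHT (−0.35 ± 0.073). CGNL1 and CGN thus had the directions of OCLN in each of the 3 comparisons. PARD6B rose in LNCaP (0.65 ± 0.10), RAB13, a GTPase of junction traffic, rose in C42B (0.31 ± 0.047), and MAGI3 and PARD3B fell with DHT (−0.49 ± 0.060 and −0.78 ± 0.10). AMOT, among the 12 genes lower with DHT, was dim with DHT and with vehicle (means of 4.18 and 4.47).

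Of 11 adherens junction genes 3 rose in C42B with siLSD1, 2 rose and 1 fell in LNCaP, and 3 rose and 4 fell with DHT, against 18.0%, 25.9% and 32.7% of all genes. E-cadherin, CDH1, rose in C42B (0.23 ± 0.047), did not pass in LNCaP (0.082 ± 0.056, limma adjusted p = 0.35) and fell with DHT (−0.19 ± 0.046). NECTIN4 rose by 0.35 ± 0.063 in C42B and 0.31 ± 0.059 in LNCaP and fell with DHT (−0.26 ± 0.043). NECTIN3 rose with siLSD1 in C42B (0.37) and with DHT (0.53). In LNCaP NECTIN3 passed higher too (0.97), but both groups were dim there (means of 5.33 and 4.36), so the size of that change is uncertain. Vinculin, VCL, rose with DHT (0.60 ± 0.038). Of 9 desmosome genes 2 rose and 1 fell in C42B, 1 rose and 1 fell in LNCaP, and 2 rose and 4 fell with DHT, beside the same shares of all genes (18.0%, 25.9% and 32.7%). The plakophilin PKP2 rose with siLSD1 in both lines (0.58 ± 0.11 and 0.50 ± 0.079), and PKP4 fell in both (−0.31 ± 0.061 and −0.19 ± 0.058) and with DHT (−0.48 ± 0.040).

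Of 17 measured regulators of epithelial junction genes, 4 rose and 1 fell with siLSD1 in C42B, 4 rose in LNCaP with none lower, and 5 rose and 1 fell with DHT. Of all genes 18.0%, 25.9% and 32.7% passed, so the LNCaP and DHT counts lay near the share of all genes. The epithelial repressor of mesenchymal genes OVOL1 rose with siLSD1 in C42B (0.34 ± 0.053) and LNCaP (0.84 ± 0.071). The splicing regulator ESRP1 rose in C42B (0.27 ± 0.049) and LNCaP (0.74 ± 0.065). KLF4 fell with siLSD1 in C42B (−0.41 ± 0.055, limma adjusted p = 0.0028), the largest change of the list there. KLF4 did not pass in LNCaP (0.046 ± 0.097, limma adjusted p = 0.79) and rose with DHT (0.69 ± 0.049). ELF3 was the gene of the list that fell with DHT (−0.56 ± 0.064). With DHT SNAI2, a known repressor of OCLN, rose by at least 4.14 on the log2 scale from a dim vehicle level, the claudin activator GRHL2 rose by 0.80 ± 0.049 and KLF5 by 2.03 ± 0.097. SNAI2 did not pass with siLSD1 in either line and was dim in all 4 siRNA groups. Whether these regulators act on the tight junction genes was not tested.

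**Figure D4:**
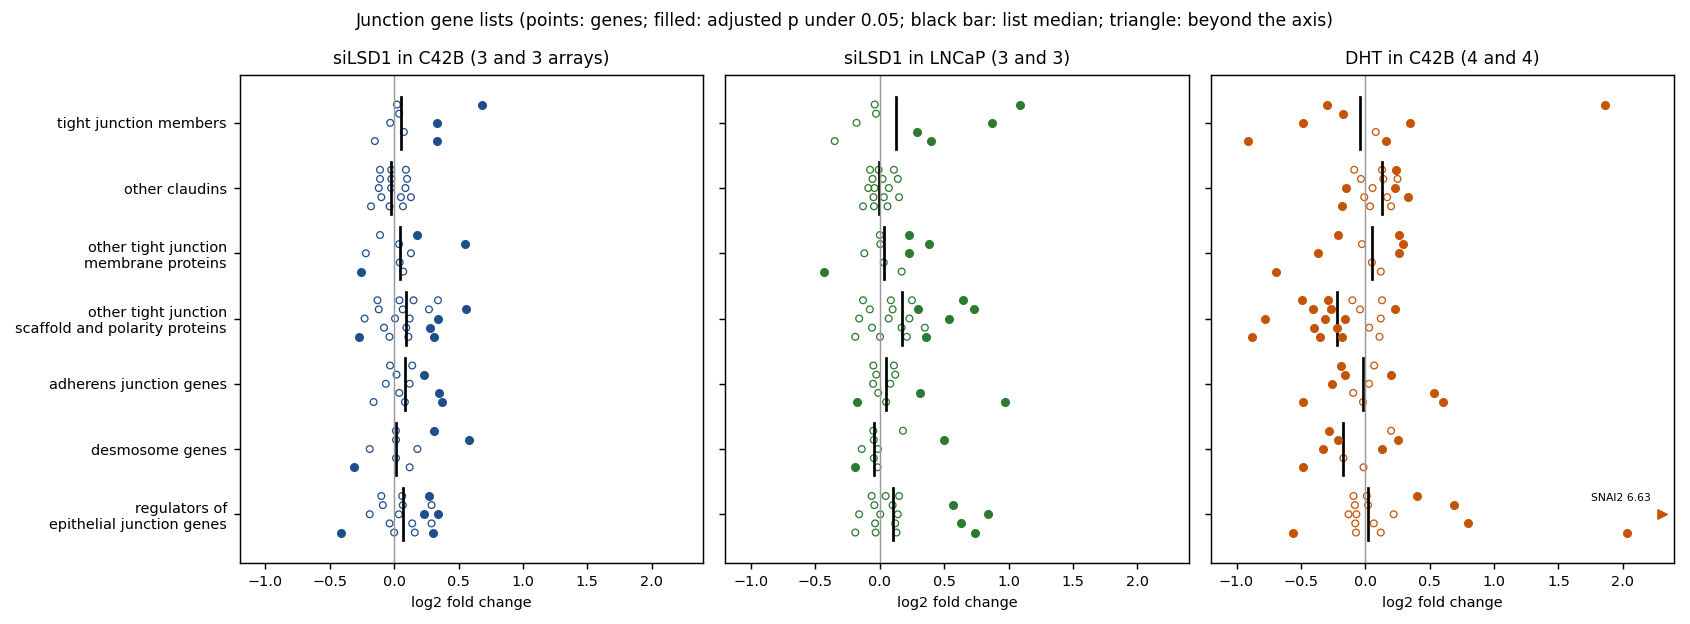
Log2 fold change of the 8 tight junction genes and of 6 lists of related genes in the 3 comparisons; each point is a gene, filled for an adjusted p under 0.05, the black bar is the list median, and the triangle marks SNAI2, whose fitted value of 6.63 lies beyond the axis and rests on a dim vehicle group. Most scaffold and polarity genes lie below 0 with DHT, with a list median of −0.22. No other claudin passed with siLSD1, and several of them were dim in the siRNA groups.

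Markers of other cell types moved in part with the treatments. The summed intensity of 7 stromal markers was lower with siLSD1 in LNCaP (921 to 962 against 1090 to 1159) and with DHT in C42B (1473 to 1620 against 1924 to 2055), while the groups overlapped in C42B with siLSD1 (2300 to 2605 against 2532 to 2761). None of the stromal markers passed in C42B with siLSD1, 2 of 7 fell in LNCaP (COL3A1 and ACTA2) and 2 of 7 fell with DHT (COL3A1 and VIM). The summed intensity of 5 basal markers was 562 to 629 against 446 to 502 in LNCaP and 720 to 864 against 648 to 705 in C42B with siLSD1. With DHT it was 596 to 637 against 639 to 767 with vehicle. Of these 5 markers 1 rose in C42B and 2 rose in LNCaP with siLSD1, and 1 rose and 1 fell with DHT. The sum of 8 luminal markers was higher with DHT (53164 to 54836 against 20774 to 22202) and with siLSD1 in C42B (49664 to 50155 against 39917 to 41141) and LNCaP (34488 to 36149 against 28133 to 29220). Such a sum weighs the brightest markers most. Singly, 6 of the 8 rose with DHT and 2 fell (EPCAM and HOXB13). With siLSD1 4 of 8 rose in each line and none passed lower. Of all genes 32.7% passed with DHT, 18.0% with siLSD1 in C42B and 25.9% in LNCaP. The part of these shifts in the tight junction results was not tested. In bulk RNA, fewer cells with a transcript and less transcript per cell cannot be told apart.

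Over the 20 arrays, with each experiment's mean taken off, OCLN and TJP3 had the closest profiles of any member pair (Pearson r = 0.92), and CLDN8 and TJP3 the most opposed (r = −0.80). CLDN7 and CLDN12 followed with r = 0.79. Among 13393 genes with a mean level of at least 6, the profiles most like that of OCLN were those of FKBP9 and CTTNBP2NL (r = 0.99 for both). Those most like CLDN8 were PPP2CB and PMEPA1 (r = 0.99 for both), those most like CLDN12 were SCD and RABEP1 (r = 0.98 for both), and those most like TJP3 were ERBB2 and NEFL (r = 0.96 for both). For CLDN7 they were CASTOR1 and SF3B5 (r = 0.96 for both), for TJP1 LINC00621 and ACBD3 (r = 0.94 and 0.93), for CLDN4 RXRA and ZNRF1 (r = 0.91 and 0.90) and for CLDN3 TCEA3 and DYNLT1 (r = 0.88 for both). These are descriptions over 20 arrays that share the same 3 contrasts, so any genes that respond to the treatments alike give a high r.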

How the data were processed

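RNA of 20 cell-line samples was hybridized to Affymetrix arrays. The deposited values are intensity per probe set, made by the authors with RMA (affy), as the submitters' processing notes list, with versions not given in the sources used here. They run from 4.34 to 36333, so log2 was taken. Array distributions fall into 3 classes, 1 per experiment. Of 54675 probe sets, 41097 name exactly 1 gene in the annotation used and 1801 name several. Dim probe sets were kept. Group means under 6 were called dim, and a change against a dim group is a lower bound that starts at 6.

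Each comparison was fitted on its own arrays in limma 3.58.1 (R 4.3.3; lmFit, eBayes, two-sided, no covariates), and p-values were adjusted over 19775 genes by Benjamini-Hochberg. The difference between lines was a contrast over the 12 siRNA arrays. The fit was tested on simulated data. Permutation tests were exact and two-sided. Tables were made in Python 3.11.15 with pandas 2.3.3 and numpy 2.4.6, and figures with matplotlib 3.10.9. The members and lists were chosen with earlier results of these data known. The named genes are KDM1A, KLK3, FKBP5, the members, leading list genes and the 2 most similar profiles per member. Leading list genes passed, were bright in at least 1 group and had no overlap (up to 3 per list and comparison). CXADR, ILDR2, NECTIN1, PLEKHA7, PERP, DSC2, DSP, OVOL2 and GRHL3 met this rule too and are not described. PARD3, ELF3, COL3A1, ACTA2, VIM, JAM2, AMOT, the dim claudins and the marker genes were named outside this rule. The alternatives were other probe sets, the mean of probe sets, bright genes only, an offset of 32, median centring, quantile normalization, arrayWeights, a robust eBayes with trend, a block on the replicate number, 1 fit over all 20 arrays, and the omission of each array in turn.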

Additional observations from a re-analysis of the deposited data

Results flagged for a closer look

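The siLSD1 effect differed between LNCaP and C42B for OCLN (0.54 on the log2 scale, LNCaP minus C42B), CLDN7 (0.36), CLDN12 (0.42) and CLDN8 (−0.37), each by the limma contrast over the 12 siRNA arrays. The line, the serum and the transfection differ together between these experiments and cannot be told apart. The fall of KDM1A was larger in LNCaP by −0.37 ± 0.12, which did not pass (limma adjusted p = 0.063). Its part in these differences was not tested. In the androgen experiment CLDN7 in DHT replicate 4 stood apart from its group, at 11.32 against 11.41 to 11.42 in the other DHT arrays. It was the only such case among 16 groups of 4 arrays tested, and chance gives about 1 in 20.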

How the results depend on the processing

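Each call of a member with siLSD1, 3 in C42B and 4 in LNCaP, kept its direction and passed under every alternative run. OCLN lay between 0.31 and 0.81 in C42B and between 0.84 and 1.76 in LNCaP. The call of TJP3 in LNCaP came closest to the threshold, with a highest limma adjusted p of 0.05 after rounding. TJP1 and CLDN4 added calls in LNCaP under some alternatives, each of them lower, so that 4 to 6 members passed there. In C42B TJP1 passed lower with the mean of all probe sets (−0.26, limma adjusted p = 0.014), so that 4 members passed. With DHT 5 to 7 members passed, and OCLN, CLDN8, CLDN12 and TJP3 did so under every alternative. The calls of CLDN3 and CLDN4 with DHT ended with the mean of all probe sets (limma adjusted p = 0.053 and 0.089), and that of TJP1 with all 20 arrays in 1 fit (limma adjusted p = 0.17). For the difference between the lines, leaving out single arrays left 2 to 4 members called. OCLN and CLDN7 were called in every such fit, and the count was 2 without C42B siLSD1 replicate 2 or 3, C42B siNTC replicate 1 or 2, or LNCaP siLSD1 replicate 2.

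The sign changes seen were of values that did not pass under that alternative. With single arrays left out, CLDN4 in C42B ranged from −0.032 to 0.072, CLDN3 in LNCaP from −0.053 to 0.0040 and CLDN8 in LNCaP from −0.10 to 0.049. CLDN4 gave −0.023 without C42B siLSD1 replicate 2, −0.032 without C42B siNTC replicate 1, and by its second probe set 0.11 in LNCaP, 0.012 with DHT and 0.035 for the difference. TJP3 gave −0.038 in C42B by its second probe set, CLDN3 gave 0.0040 without LNCaP siNTC replicate 3, and CLDN8 gave 0.049 without LNCaP siLSD1 replicate 1. The cause was not tested. Same-numbered treated and control arrays correlated at −0.096 to 0.20 around their group means, the highest for replicate 1 in LNCaP. The main fits did not use the numbers as pairs, and such low values do not show whether the samples were paired. With the replicate block 3, 5, 7 and 4 members passed with siLSD1 in C42B, siLSD1 in LNCaP, DHT and for the difference. TJP1 then passed in LNCaP (limma adjusted p = 0.0077) and for the difference (limma adjusted p = 0.034), and the CLDN8 difference did not pass (limma adjusted p = 0.059).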
